A study of Mus musculus with 8 samples.

Results

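The matricellular and lysyl oxidase genes Postn, Fn1, Tnc, Thbs1, Thbs2, Sparc, Lox, Loxl1, Loxl2 and Fbn1 were examined in neonatal cardiomyocytes (NCMs) after gestational exposure to diesel exhaust (DE) or filtered air (FA). They were taken as a named list, matched by symbol to Entrez identifiers, and are 10 of the 27179 genes in the count table. All 10 passed the filter on low counts, which left 14966 genes for testing. RNA-seq libraries came from 4 FA and 4 DE offspring of C57Bl/6 J mice, each library from 1 male heart taken on postnatal day 0 and trimmed of its atria. Dams were housed in FA for mating, then kept in FA or DE from embryonic day 0.5 until shortly before birth. The study's methods describe fewer hearts in each RNA-seq group than there are deposited libraries, and all deposited libraries were used. Surrounding vessels were trimmed away, and dissociated cells were filtered and kept on a plate with Ara-C, which stops dividing cells, so that fibroblasts could attach and be left behind. The NCM preparations can still hold other heart cells.

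Matricellular proteins are secreted into the extracellular matrix, where they tune how cells attach, migrate and respond to growth factors rather than bearing load. Fibronectin and fibrillin form fibrils on which collagen, elastin and latent TGF-beta are assembled, and lysyl oxidases oxidize lysines of collagen and elastin so that the fibers become crosslinked. In the heart these genes are used mostly by fibroblasts and other non-muscle cells, and they are known for their activity in development, wound repair and fibrosis.

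Library totals lay between 17943024 and 39839737 counts. The label of the cells was checked against markers. The 15 cardiomyocyte markers summed to between 73650 and 91510 CPM (counts scaled to a common library size with TMM factors), and the 15 fibroblast markers to between 2069 and 5828 CPM, so cardiomyocyte RNA was dominant and fibroblast markers were present in every library. Of the fibroblast markers none was at 0. In bulk RNA, more cells of a type and more RNA per cell cannot be told apart. FA replicate 3 and DE replicate 1 stood apart for these genes. FA replicate 3 was the lowest library for all 10 genes, and DE replicate 1 was the highest for 9 of the 10, with DE replicate 3 highest for Sparc. Results are therefore also given without both.

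Of the 10 genes, 1 was called different between DE and FA. This was Loxl2, which rose in DE. Calls required at least a 25% difference together with an adjusted p of at most 0.05 in the quasi-likelihood test of edgeR. By this rule 5.8% of tested genes were called, 3.58% higher and 2.22% lower in DE. All 10 genes had a log2 fold change above 0, as did 50.5% of tested genes. Their median was 0.48, and the median over all tested genes was 0.0037. At an unadjusted p under 0.05, 4 of the 10 were higher in DE (Postn, Sparc, Loxl1 and Loxl2), against 13.4% of tested genes that were higher and 25.6% in either direction. For 1 of the 10, Loxl2, every DE library exceeded every FA library, and FA and DE were separate, in either direction, for 14.7% of tested genes. Without FA replicate 3 and DE replicate 1, 0 of the 10 were called by edgeR, and 984 of 15068 tested genes were called, 456 higher and 528 lower in DE. These libraries were picked for the extremes of the 10 genes themselves, so smaller differences of these genes without them were fixed by that choice. The values without both show how much rested on the pair and are no test, and the count of 0 is not to be read against that over all genes.

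**Figure D1:**
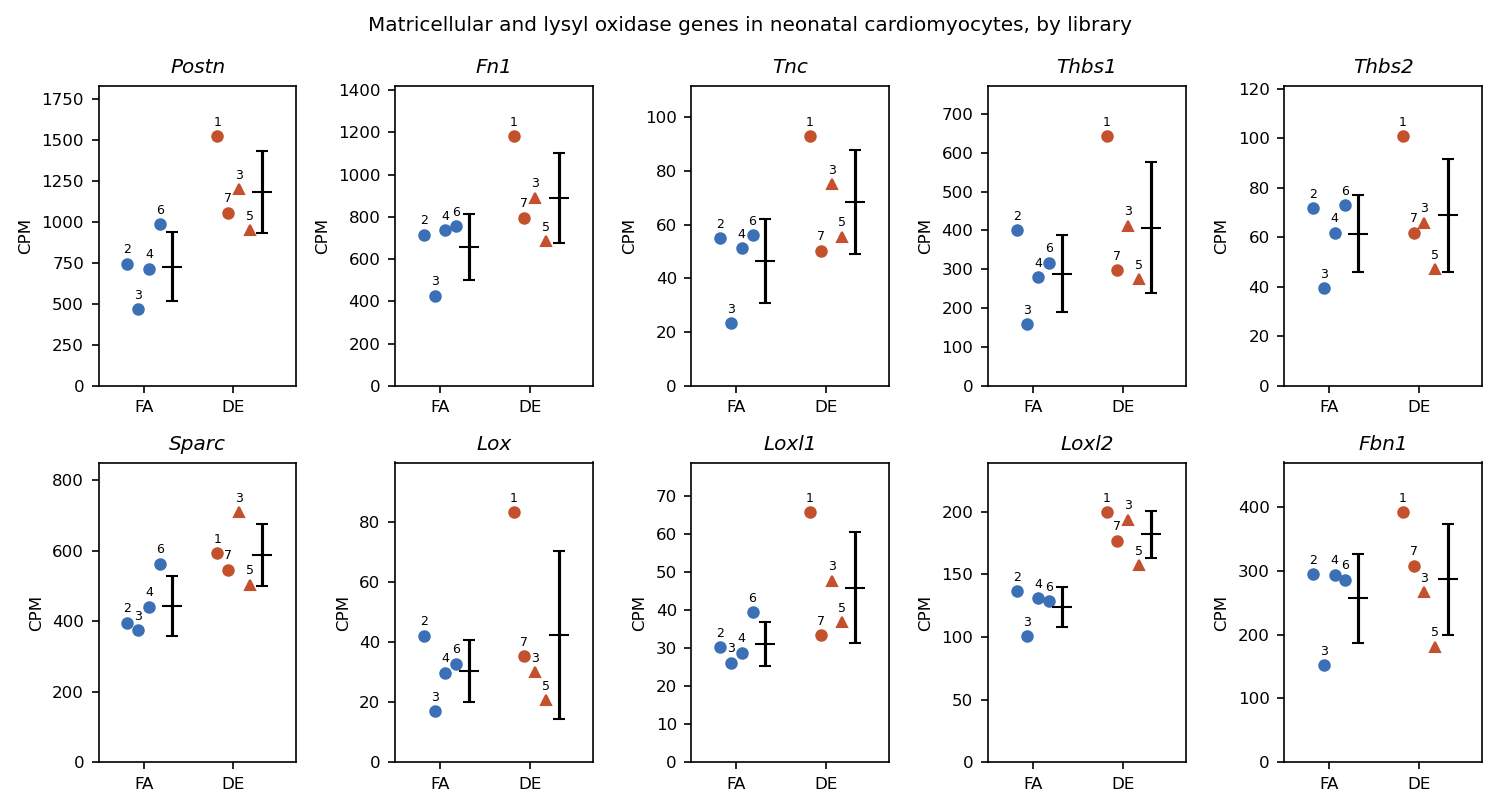
CPM of each gene (y axis, from 0) in the FA and DE libraries (x axis). Each point is 1 library with its replicate number, circles for libraries whose sample name has the number 11 and triangles for 12, and the bar is the mean ± SD of 4 libraries. FA replicate 3 is lowest in each of the 10 panels, and only for Loxl2 do all DE points lie above all FA points.

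Promoter sequence from RefSeq (GRCm38.p6) was at hand for 5 of the 10 genes, namely Postn, Sparc, Tnc, Thbs2 and Fbn1. The upstream stretches of 3 of them are shown because Postn and Thbs2 varied closely together across libraries (r = 0.93) while Sparc followed Thbs2 less (r = 0.53), as described for co-variation, and because TGF-beta, whose SMAD factors bind the letters CAGAC, is a classic inducer of matricellular genes. Each stretch is the 200 bases before the annotated start, 5′ to 3′ on the strand of the gene, with CAGAC or its reverse complement GTCTG in capitals. Postn is on the plus strand at chr3:54359067-54359266, Sparc on the minus strand at chr11:55420081-55420280 and Thbs2 on the minus strand at chr17:14694263-14694462.
Postn: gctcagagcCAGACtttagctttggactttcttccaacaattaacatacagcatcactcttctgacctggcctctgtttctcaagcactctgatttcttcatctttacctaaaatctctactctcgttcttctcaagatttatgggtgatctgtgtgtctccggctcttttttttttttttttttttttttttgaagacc
Sparc: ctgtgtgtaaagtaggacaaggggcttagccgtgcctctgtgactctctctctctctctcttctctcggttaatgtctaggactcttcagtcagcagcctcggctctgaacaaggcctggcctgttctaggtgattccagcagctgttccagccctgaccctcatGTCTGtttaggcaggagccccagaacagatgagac
Thbs2: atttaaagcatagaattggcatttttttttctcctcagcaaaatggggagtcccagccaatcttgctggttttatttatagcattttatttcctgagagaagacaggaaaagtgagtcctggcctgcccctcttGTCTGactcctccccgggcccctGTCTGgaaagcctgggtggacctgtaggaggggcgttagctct
In windows from 250 bases before to 50 after the start, searched on both strands, CAGAC was found in 4 of the 5 promoters and in 49.6% of all 32851 promoter windows. TATAAA was found in 2 of the 5 (Thbs2 and Tnc) and in 13.6% of these windows, and GGGCGG in 2 of the 5 (Fbn1 and Tnc) and in 35.7%. The AP-1 letters TGANTCA and the TEAD letters GGAATG were found in 0 of the 5, and in 7.81% and 14.7% of these windows. A match describes letters only and is not a binding site.

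Levels of different genes were compared as CPM per kilobase of exon. In FA, Postn was the most abundant at 221 ± 64.5 CPM per kb (SD, n = 4), above 98.5% of tested genes with a known length. Sparc followed at 163 ± 31.1, Fn1 at 77.7 ± 18.3, Thbs1 at 49.4 ± 17.1, Loxl2 at 23.0 ± 2.97 and Fbn1 at 21.4 ± 5.83 CPM per kb. Thbs2 at 10.4 ± 2.62, Loxl1 at 9.47 ± 1.75, Lox at 6.39 ± 2.18 and Tnc at 5.97 ± 2.00 CPM per kb were the least abundant. The first 4 genes had the same order in all 8 libraries. In FA, the ranges of Postn and Sparc overlapped, as did those of Fn1 and Thbs1, of Loxl2 and Fbn1, and of neighbours among the 4 lowest genes. Sparc and Fn1, Thbs1 and Loxl2, and Fbn1 and Thbs2 did not overlap. Tnc, the lowest, lay above 49.3% of tested genes.

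Among the matricellular proteins, Postn encodes periostin, a collagen- and integrin-binding protein of developing valves and activated fibroblasts. Its gene (Entrez 50706) lies on chromosome 3 of GRCm38.p6 from 54359267 to 54391041, with 3289 exonic bases. Postn was at 745, 467, 714 and 986 CPM in FA replicates 2, 3, 4 and 6, and at 1524, 1201, 951 and 1056 CPM in DE replicates 1, 3, 5 and 7. The highest FA library was above the lowest DE library, so the groups overlapped at this edge. The mean was 727.7 ± 212 CPM in FA and 1183 ± 249 in DE (SD, n = 4 each), with a log2 fold change of 0.70 (standard error 0.21, 95% interval 0.24 to 1.16, edgeR adjusted p = 0.0703). Postn was not called, although its difference was the largest of the 10. It was called in 5 of 21 alternatives, with adjusted p from 0.0165 to 0.330. Without FA replicate 3 and DE replicate 1 its log2 fold change was 0.39 (adjusted p = 0.126).

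Sparc encodes a small glycoprotein that binds collagen and takes part in its processing into fibrils. Its gene (Entrez 20692) lies on chromosome 11 from 55394159 to 55420080, with 2721 exonic bases. Sparc was at 396, 374, 442 and 563 CPM in FA replicates 2, 3, 4 and 6, and at 594, 709, 504 and 546 CPM in DE replicates 1, 3, 5 and 7. Only FA replicate 6 reached the range of the DE libraries. On the log2 scale DE exceeded FA by 0.41 (standard error 0.15, 95% interval 0.08 to 0.73, adjusted p = 0.117). Without FA replicate 6 it was 0.54 and was called (adjusted p = 0.0455, the lowest of its 21 alternatives, which reached 0.710). Without FA replicate 3 and DE replicate 1 it was 0.33 (adjusted p = 0.229).

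Fn1 encodes fibronectin, which binds integrins and is laid down before collagen. Its gene (Entrez 14268) lies on chromosome 1 from 71585473 to 71653280, with 8479 exonic bases. Fn1 was at 715, 427, 737 and 755 CPM in FA replicates 2, 3, 4 and 6, and at 1183, 891, 685 and 797 CPM in DE replicates 1, 3, 5 and 7. Outside FA replicate 3 and DE replicate 1 the remaining libraries lay close together and the groups overlapped. Fn1 had a log2 fold change of 0.43 (standard error 0.20, 95% interval -0.01 to 0.87, adjusted p = 0.20), and of 0.10 without both libraries (adjusted p = 0.60). Counts per gene do not separate the splice forms of fibronectin.

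Tnc encodes tenascin-C, a glycoprotein that is high in the embryo and after injury and low in healthy adult muscle. Its gene (Entrez 21923) lies on chromosome 4 from 63959785 to 64047015, with 7772 exonic bases. Tnc was at 55.0, 23.3, 51.3 and 56.0 CPM in FA replicates 2, 3, 4 and 6, and at 93.0, 75.0, 55.6 and 50.4 CPM in DE replicates 1, 3, 5 and 7. DE replicates 5 and 7 were within the range of FA. Tnc had a log2 fold change of 0.56 (standard error 0.26, 95% interval -0.02 to 1.14, adjusted p = 0.208). Without FA replicate 3 and DE replicate 1 it was 0.16 (adjusted p = 0.512).

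Thbs1 and Thbs2 encode thrombospondins, which bind CD36 and CD47 and restrain the growth of vessels, and thrombospondin-1 can also activate latent TGF-beta. Thbs1 (Entrez 21825) lies on chromosome 2 from 118111876 to 118127133, with 5848 exonic bases. Thbs2 (Entrez 21826) lies on chromosome 17 from 14665500 to 14694262, with 5895 exonic bases. Thbs1 was at 401, 159, 280 and 317 CPM in FA replicates 2, 3, 4 and 6, and at 643, 413, 275 and 298 CPM in DE replicates 1, 3, 5 and 7. DE replicates 1 and 3 lay above every FA library, and DE replicates 5 and 7 lay within the FA range. The log2 fold change of Thbs1 was 0.49 (standard error 0.30, 95% interval -0.16 to 1.14, adjusted p = 0.317). It was -0.02 without FA replicate 3 and DE replicate 1.
Thbs2 was at 71.8, 39.6, 61.9 and 72.9 CPM in FA replicates 2, 3, 4 and 6, and at 101, 66.0, 47.0 and 61.8 CPM in DE replicates 1, 3, 5 and 7. Apart from DE replicate 1, the DE libraries lay within the range of FA. Thbs2 had a log2 fold change of 0.16 (standard error 0.23, 95% interval -0.35 to 0.68, adjusted p = 0.693), so a difference of more than 1.6-fold upwards lay outside the interval. Its sign depended on the libraries, with -0.08 without DE replicate 1 and -0.24 without both libraries.

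Among the lysyl oxidases, Loxl2 encodes an enzyme with scavenger receptor domains that crosslinks collagen, including collagen IV of basement membranes. Its gene (Entrez 94352) lies on chromosome 14 from 69608692 to 69695834, with 5405 exonic bases. Loxl2 was at 137, 101, 131 and 129 CPM in FA replicates 2, 3, 4 and 6, and at 199, 194, 157 and 177 CPM in DE replicates 1, 3, 5 and 7. Every DE library was above every FA library. Loxl2 averaged 124.2 ± 16.1 CPM in FA and 181.9 ± 18.9 in DE (SD, 4 libraries each) and rose by 0.55 on the log2 scale, a fold of 1.46 (standard error 0.12, 95% interval 0.29 to 0.81, adjusted p = 0.0260). Its spread between libraries was the smallest of the 10, with coefficients of variation of 12.9% in FA and 10.4% in DE. The log2 fold change was above 0 in all 21 alternatives, from 0.41 to 0.62, and the call was made in 14 of them, with adjusted p from 0.00117 to 0.263. Leaving out FA replicate 2, 3 or 4 or DE replicate 3 ended the call (adjusted p = 0.0559, 0.0541, 0.0734 and 0.0797), and so did the removal of FA replicate 3 with DE replicate 1 (log2 fold change 0.41, adjusted p = 0.0624). The antisense gene Gm27177 shares 301 exonic bases with Loxl2.

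Loxl1 encodes the lysyl oxidase needed for elastic fibers. Its gene (Entrez 16949) lies on chromosome 9 from 58287723 to 58313212, with 3297 exonic bases. Loxl1 was at 30.3, 26.3, 28.8 and 39.5 CPM in FA replicates 2, 3, 4 and 6, and at 65.8, 47.8, 36.9 and 33.5 CPM in DE replicates 1, 3, 5 and 7. FA replicate 6 lay above DE replicates 5 and 7. Loxl1 had a log2 fold change of 0.56 (standard error 0.20, 95% interval 0.12 to 1.01, adjusted p = 0.117), and it was called in 0 of 21 alternatives (adjusted p from 0.0550 to 0.518). It was 0.34 without DE replicate 1 and 0.26 without both libraries (adjusted p = 0.205 and 0.318).

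Lox encodes the founding lysyl oxidase, which acts on collagen I, collagen III and elastin. Its gene (Entrez 16948) lies on chromosome 18 from 52516060 to 52529867, with 4778 exonic bases. Lox had the fewest counts of the 10 in a single library, 342 in FA replicate 3. Lox was at 42.3, 17.0, 29.9 and 32.9 CPM in FA replicates 2, 3, 4 and 6, and at 83.3, 30.1, 20.8 and 35.4 CPM in DE replicates 1, 3, 5 and 7. A single DE library lay above the FA range. The log2 fold change of 0.47 had a standard error of 0.38 and a 95% interval of -0.37 to 1.31 (adjusted p = 0.464). Without DE replicate 1 it was -0.10, so the sign rested on that library.

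Fbn1 encodes fibrillin-1, the main protein of microfibrils, which scaffold elastin and hold latent TGF-beta. Its gene (Entrez 14118) is the longest of the 10, on chromosome 2 from 125300594 to 125506485, with 12004 exonic bases. Fbn1 was at 294, 152, 294 and 286 CPM in FA replicates 2, 3, 4 and 6, and at 391, 266, 181 and 308 CPM in DE replicates 1, 3, 5 and 7. The groups overlapped, with DE replicate 5 next to the low FA replicate 3. Fbn1 had a log2 fold change of 0.16 (standard error 0.24, 95% interval -0.38 to 0.69, adjusted p = 0.713). It was -0.03 without FA replicate 3 and -0.21 without both libraries. On the opposite strand, Gm9913 shares 2442 exonic bases with Fbn1, and the strand setting of the counting is not given in the sources used here, so reads of both cannot be told apart.

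**Figure D2:**
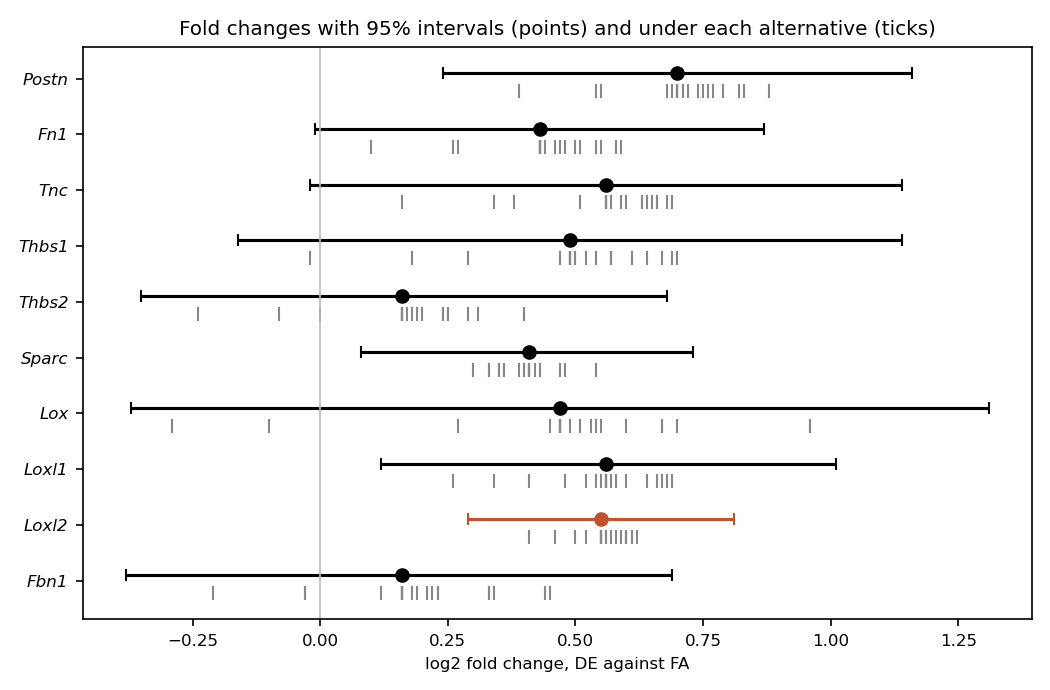
Log2 fold change of each gene in DE against FA (x axis). Points are the fit over all 8 libraries with 95% intervals, coloured for the called gene Loxl2, and grey ticks are the values under each of 21 alternatives. The ticks of Thbs1, Thbs2, Lox and Fbn1 reach below 0, and those of Loxl2 stay between 0.41 and 0.62.

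The sample names carry the number 11 in the FA libraries and DE replicates 1 and 7, and 12 in DE replicates 3 and 5. What the number stands for is not given in the sources used here, and only the libraries with 11 hold both groups. Within these, the log2 fold changes were 0.82 for Postn, 0.58 for Fn1, 0.63 for Tnc, 0.70 for Thbs1, 0.40 for Thbs2 and 0.36 for Sparc. They were 0.96 for Lox, 0.67 for Loxl1, 0.59 for Loxl2 and 0.44 for Fbn1, so the direction was the same for all 10 and 0 were called by edgeR. The DE side here is only replicates 1 and 7, and FA replicate 3 is kept. The subset thus still holds the pair with the extremes, and its direction is no independent support. DE replicate 7 alone was near the FA mean for Thbs2 (61.8 and 61.5 CPM) and above it for Loxl2 (177 and 124.2 CPM). With the number as a term, Loxl2 was called (0.60, adjusted p = 0.0427) and the other 9 were not. Among the DE libraries, Fbn1 averaged 349 CPM with the number 11 and 223 CPM with 12, whereas Sparc averaged 570 and 606 CPM. For Lox the means were 59.4 and 25.5 CPM, but the first was carried by DE replicate 1 (83.3 CPM), and DE replicate 7 at 35.4 CPM was near DE replicate 3 at 30.1 CPM.
Transcript length also moved with the libraries. The median log2 deviation of genes with at least 5000 exonic bases, less that of genes under 2000, was 0.44, -0.19, 0.37 and -0.06 in FA replicates 2, 3, 4 and 6, and 0.10, -0.33, -0.44 and 0.12 in DE replicates 1, 3, 5 and 7. With offsets that remove the trends with length and GC content, the log2 fold changes were 0.74 for Postn, 0.55 for Fn1 and 0.60 for Loxl2, and all 3 were called (adjusted p = 0.0262, 0.0354 and 0.00187). Over the alternatives, the adjusted p of Fn1 ranged from 0.0354 to 0.749. Fbn1 was at 0.34 with these offsets and was not called (adjusted p = 0.181, with a range from 0.166 to 1.00 over its alternatives).

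The level of fibroblast markers moved with exposure as well. The 15 markers, none of them among the 10 genes, summed to 3035, 2069, 2861 and 3179 CPM in FA replicates 2, 3, 4 and 6, and to 5828, 4483, 3454 and 4355 CPM in DE replicates 1, 3, 5 and 7. The groups did not overlap, and FA replicate 3 and DE replicate 1 were again the lowest and the highest. Of the 15, 14 had a log2 fold change above 0, with a median of 0.55, and 4 were called higher (Col1a1, Col5a1, Dcn and Dpt), which is 26.7% against 5.8% of all tested genes. Without both libraries 1 was called, 6.67% against 6.53% of all tested genes, and over 21 alternatives the number called ran from 1 to 9. The pair held the extremes of this marker sum, so a smaller difference of the sum without it was fixed by that choice. The shares without the pair are therefore not to be read against each other. Col3a1 and Col1a1 were the most abundant, and Col1a1 rose by 0.95 (adjusted p = 0.00874).
Expressed as a percentage of this marker sum in the same library, 9 of the 10 genes were lower in DE on average, with a median log2 difference of -0.23. Because the marker sum itself was higher in DE, 96% of all tested genes were lower on this scale, with a median of -0.69, so the count of 9 is no result about these genes. The exception, Postn, was at 25.8 ± 3.65% in FA and 26.2 ± 1.40% in DE (SD, n = 4 each). Loxl2 was at 4.50 ± 0.339% and 4.09 ± 0.490%, and its groups overlapped on this scale. FA and DE were separate for Fn1 (23.4 ± 2.11% and 19.6 ± 0.878%), Thbs2 (2.18 ± 0.199% and 1.5 ± 0.164%) and Fbn1 (9.07 ± 1.28% and 6.23 ± 0.813%), 3 of the 10, against 43.8% of all tested genes. Against the 11 markers that are not collagens, 5 genes were lower and 5 higher in DE, with a median of 0.00 and 0 without overlap, against 90% of tested genes lower, a median of -0.46 and 18.9% without overlap. Thus the ratio depended on the collagens among the markers, and Loxl2 went from -0.14 with them to 0.09 without. The ratios were not tested, and the part of fibroblast content in the differences was not tested.

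**Figure D3:**
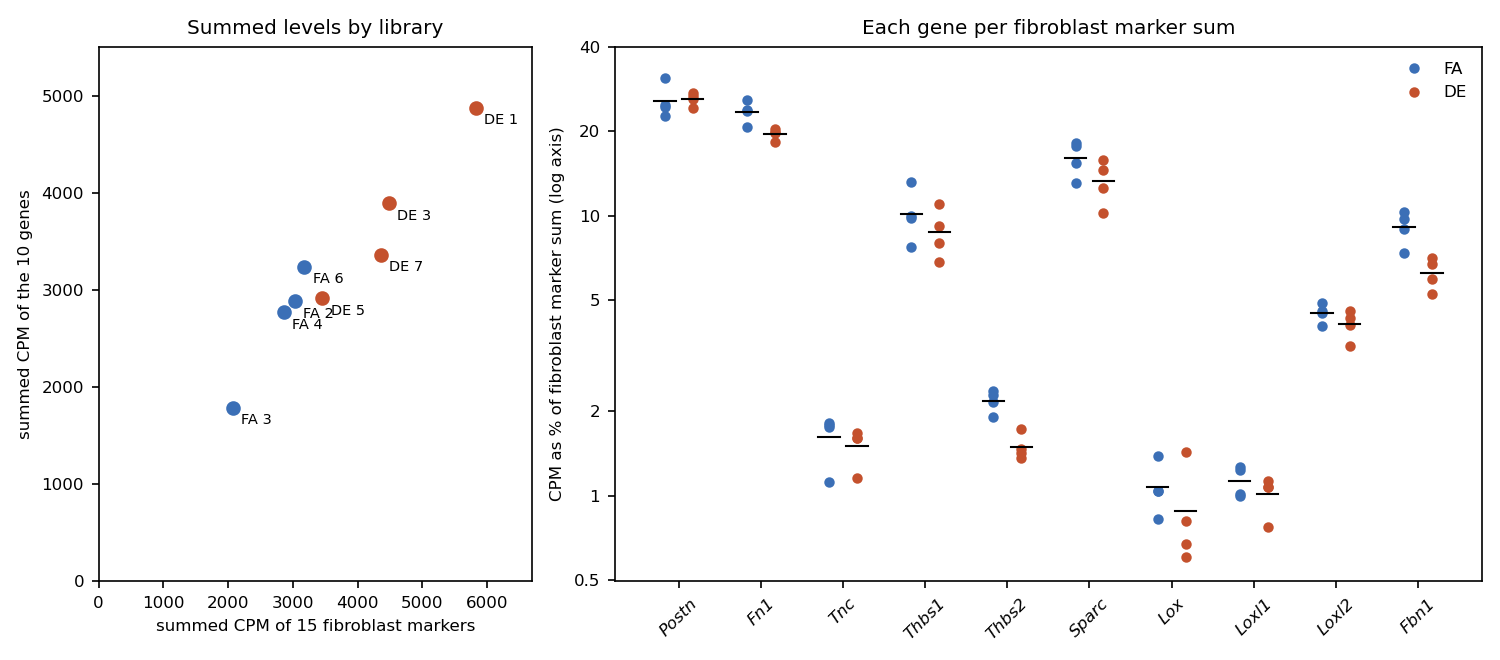
Left, summed CPM of the 10 genes (y axis) against summed CPM of 15 fibroblast markers (x axis) in each library. Right, each gene as a percentage of the marker sum in the same library (y axis, log scale), with points for libraries and lines for means of 4. The library sums rise together from FA replicate 3 to DE replicate 1, and on the right Fn1, Thbs2 and Fbn1 are lower in all DE libraries.

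Markers of other cell types were summed in the same way. The 12 endothelial markers had a median log2 fold change of 0.17, with 9 higher and 0 called by edgeR (4 at unadjusted p < 0.05), and their sum was between 1254 and 1651 CPM in FA and 1306 and 1957 CPM in DE. The most abundant were Pecam1 (0.37) and Cdh5 (0.01). Smooth muscle and pericyte markers summed to between 2582 and 3209 CPM in FA and between 2118 and 2540 in DE (median 0.11 over 12 genes, 7 above 0 and 5 below, 0 called by edgeR, 2 at unadjusted p < 0.05). The lower sum came mostly from the abundant Acta2 (-0.63, adjusted p = 0.0562), with Abcc9 (-0.43, adjusted p = 0.120) and Des (-0.10). Without Acta2 the sums were between 1655 and 1717 CPM in FA and between 1484 and 1619 in DE. These were mostly Des and Abcc9 (986 and 400.5 CPM in FA), and the low genes of the list had little weight in them. Valve and cushion markers had a median of 0.17, with 2 of 10 called. Their sum was between 639.1 and 905.7 CPM in FA and between 643.1 and 996.9 in DE, mostly from Tbx20 (-0.29) and Vcan (0.00). The 7 tested leukocyte markers had a median of 0.49, 1 called, and a sum between 18.2 and 22.8 CPM in FA and between 24.1 and 35.4 in DE, led by Cd68 (0.65, adjusted p = 0.0813) and Mrc1 (0.45). The 10 mesothelial and epicardial markers had a median of 0.05 and 0 called (2 at unadjusted p < 0.05), led by Msln (-0.09) and Wt1 (0.21), with sums from 116.1 to 161.4 CPM over all libraries. The 6 tested erythroid markers had a median of 0.41 with 1 called, and summed to between 759.3 and 1881 CPM in FA and between 1209 and 2022 in DE. Hba-a2 and Hba-a1 were the most abundant. The cardiomyocyte markers summed to between 86090 and 91510 CPM in FA and between 73650 and 85060 in DE, and this separation rested on Myh6, without which the sums overlapped (62350 to 67380 CPM in FA and 59150 to 69630 in DE). Their median was -0.15 over 15 genes, with 1 called higher (Myh7) and 2 lower (Myh6 and Pln). The part of these cells in the differences was not tested.

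The genes varied together within groups. Pearson's r of log2 CPM after removal of the group mean, over 8 libraries, had a median of 0.84 over the 45 pairs, with 27 pairs above 0.80. The closest pair was Fn1 and Thbs2 (r = 0.97), and the least alike was Sparc and Lox (r = 0.28). All pairs under 0.59 included Sparc. With the fibroblast marker sum, r was 0.99 for Thbs2, 0.97 for Fn1, 0.96 for Fbn1, 0.94 for Lox, 0.93 for Postn and Thbs1, 0.92 for Loxl2, 0.88 for Tnc, 0.78 for Loxl1 and 0.58 for Sparc. All genes of a library share its depth, RNA quality and cell makeup, and FA replicate 3 and DE replicate 1 carry much of the range.

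**Figure D4:**
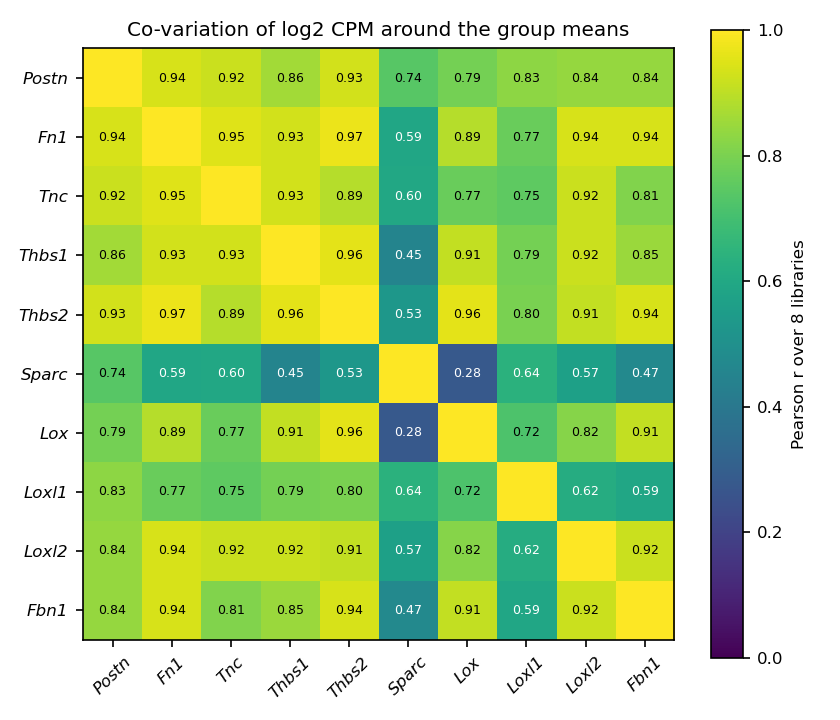
Pearson's r (colour and number, 0 to 1) between each pair of the 10 genes, over 8 libraries, from log2 CPM less the mean of each group. Sparc has the lowest values, down to 0.28 with Lox, and Fn1 and Thbs2 reach 0.97.

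Over 13352 other genes with a mean CPM of 1 or more, the most similar patterns within groups were those of Sulf1 (r = 0.986), Casp12 and Abca8a for Postn, and Olfml1 (r = 0.991), Col11a1 and Dclk1 for Fn1. They were Trpm6 (r = 0.983), Prrg1 and Fndc1 for Tnc, Enpp3 (r = 0.982), Iqgap2 and Col16a1 for Thbs1, and Itih5 (r = 0.994), Slc2a13 and Chn2 for Thbs2. Grrp1 (r = 0.985), Glipr2 and H2-M3 were closest to Sparc, Tenm3 (r = 0.985), Nox4 and Zfp709 to Lox, and Alg6 (r = 0.991), Txndc5 and Olfm1 to Loxl1. Egr3 (r = 0.998), Syt15 and Dchs1 were closest to Loxl2, and Serinc5 (r = 0.994), Golgb1 and Ccnc to Fbn1. So many genes were searched over 8 libraries that these values are a description only.

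Related genes were read from lists. Over 6 lists, 17 of 107 tested genes were called, 16 higher and 1 lower in DE, which is 15.9% against 5.8% of all tested genes. Without FA replicate 3 and DE replicate 1, 9 were called, 7 higher and 2 lower, which is 8.41% against 6.53% of all tested genes. Some listed genes are also fibroblast markers, and the pair held the extremes of that marker sum, so the shares without it are no test. Of 24 tested genes of the other matricellular proteins, 21 were higher and 5 were called, all higher, with a median of 0.50. They were Sparcl1, a relative of Sparc (248.5 ± 43.8 CPM in FA and 503.7 ± 130 in DE, log2 fold change 1.02, adjusted p = 0.0126), Dpt (0.84), Tnxb, a tenascin of elastic connective tissue (0.80), and the small leucine-rich proteoglycan Dcn and the Sparc relative Smoc2 (0.56 each). Dpt and Dcn are also fibroblast markers here. The most abundant, the follistatin-like glycoprotein gene Fstl1, had a log2 fold change of 0.46 and was not called (adjusted p = 0.0726).
Of 19 elastic fiber and microfibril genes, 16 were higher and 4 were called, with a median of 0.55. These were Efemp2 (0.79), which guides lysyl oxidase to elastin, Fbln1 (0.78), Emilin1 (0.67) and Ltbp4 (0.55). Eln, elastin itself and the most abundant of the list, averaged 370.6 ± 117 CPM in FA and 730.6 ± 632 in DE (SD, 4 libraries each), and was not called (0.98, adjusted p = 0.218). DE replicate 1 alone was at 1648 CPM, and without it the DE mean was 424.9 ± 198 CPM (SD, n = 3).

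Of 19 genes of other lysyl oxidases and of collagen crosslinking and folding, 14 were higher and 3 were called, with a median of 0.40. Crtap, a partner of collagen prolyl hydroxylation, averaged 32.8 ± 3.83 CPM in FA and 52.6 ± 5.99 in DE (SD, 4 libraries each) and rose by 0.68 on the log2 scale (adjusted p = 0.00968). Tgm2, a transglutaminase that crosslinks proteins and the most abundant of the list, rose by 0.48, and the collagen chaperone Serpinh1 by 0.40. The paralogs Loxl3 and Loxl4 were low, at 3.92 and 1.35 CPM in FA. Their log2 fold changes were 0.40 and -0.32, neither called (adjusted p = 0.168 and 0.409).
All 8 lysyl oxidase substrates had a log2 fold change above 0, with a median of 0.70. Col1a1 and Col5a1 (0.78) were called, and 4 of the 8 are also fibroblast markers. The most abundant, Col4a1, was at 0.43 and was not called (adjusted p = 0.0998).
Receptors of matricellular proteins had a median of 0.12 over 20 genes, with 2 called higher and 1 lower. The thrombospondin receptor Cd36, which also takes up fatty acids in cardiomyocytes, averaged 1145 ± 114 CPM in FA and 688.8 ± 64.0 in DE (SD, 4 libraries each) and fell by 0.73 on the log2 scale (adjusted p = 0.00437). Stab1, a scavenger receptor that takes up Sparc, rose by 0.65, and the proteoglycan Sdc4 by 0.52. Itgb1, the shared beta chain of many matrix integrins and the most abundant of the list over both groups together, was at -0.01 (adjusted p = 0.974).
The 18 genes of TGF-beta, SMAD, SRF and YAP signaling that can induce matricellular genes had a median of 0.05, with 10 higher and 8 lower. None was called by edgeR, and 2 had an unadjusted p under 0.05. Wwtr1, the most abundant, was at -0.02, and Tgfb1 at 0.25 (adjusted p = 0.309).

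**Figure D5:**
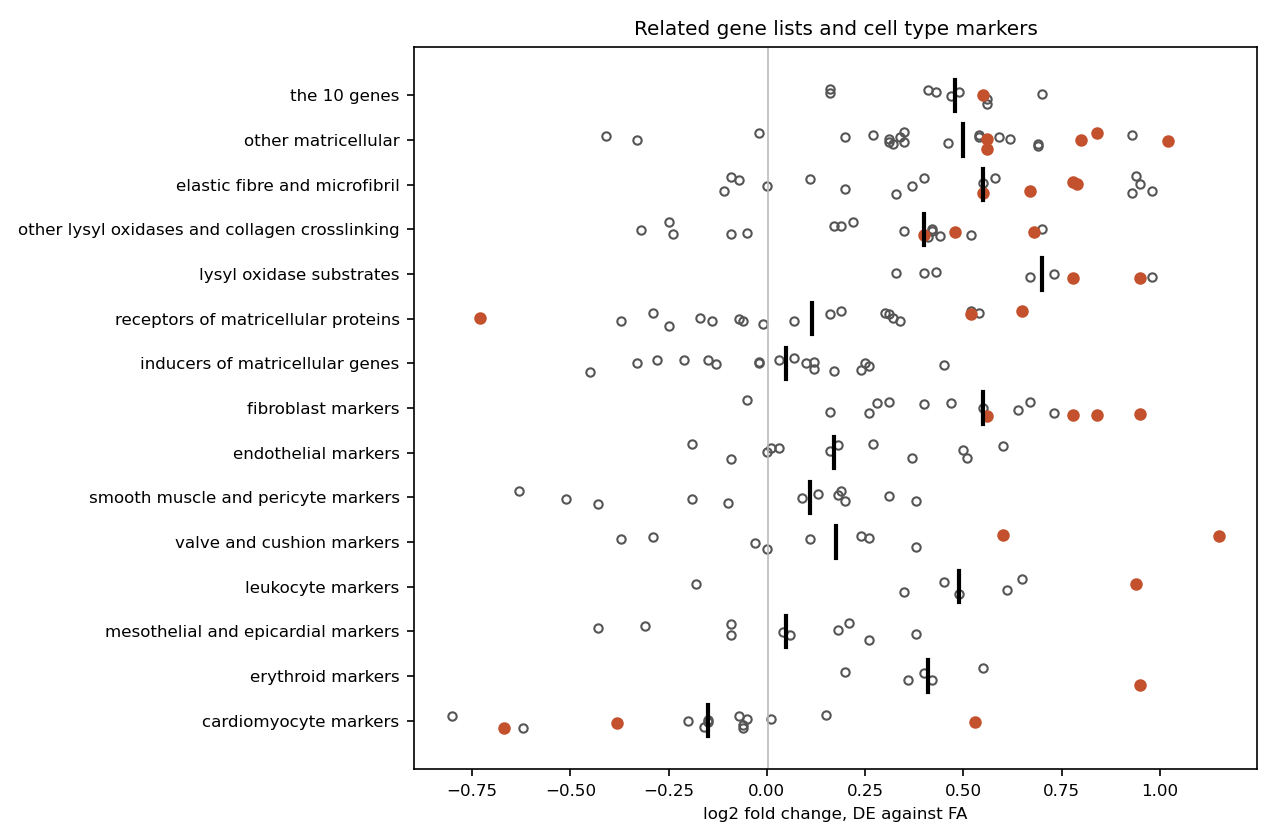
Log2 fold change in DE against FA (x axis) of each tested gene in the 10 genes, the 6 related lists and the 8 cell type marker lists (rows). Filled points are called genes, open points are not, black bars are list medians, and the grey line is the median of all tested genes, 0.0037. Medians of the matrix lists and of the fibroblast markers lie between 0.40 and 0.70, and those of receptors and inducers at 0.12 and 0.05.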

How the data were processed

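Poly-A RNA of NCMs from 8 hearts was sequenced with a stranded kit. Per the methods, TopHat mapped the reads (mm10, Ensembl v67), Picard marked duplicates, which stayed in, and featureCounts gave the whole-number counts by Entrez gene that the authors deposited. Strand and multi-mapping settings are not given in the sources used here. Symbols were found for 25275 of 27179 genes (GRCm38.p6), and exon lengths and GC content come from GENCODE M21. Precision of the counts covers counting error only, since duplicates stay in.

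Libraries were grouped by exposure. After filterByExpr with a minimum count of 10, counts were scaled by TMM and tested for exposure, the single term, by glmQLFTest of edgeR 4.0.16 (R 4.3.3), and p-values of 14966 genes were adjusted by Benjamini-Hochberg. Each heart is a separate animal, but litters are not given. The least different pair within a group, FA replicates 2 and 4, differed beyond sampling noise (chi-square 5.37 for each gene). The alternatives were DESeq2 1.42.0, the likelihood ratio test, the 25% difference built into the test, other scalings and filters, the number in the sample name, a surrogate variable (sva 3.50.0), length and GC offsets (splines of 5 degrees of freedom), each library left out, and, chosen after the data were seen, FA replicate 3 and DE replicate 1 left out together.
Named genes were the 10 genes, called genes of each list up to 6 with the most abundant one, and the 3 most similar genes for each. For each marker list they were the 2 most abundant genes and called genes up to 4. Beyond this rule, Loxl3, Loxl4, Tgfb1 and Abcc9 were named after their values were seen. Genes and lists were chosen with earlier results of these data known. Code was tested on simulated counts.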

Additional observations from a re-analysis of the deposited data

Results flagged for a closer look

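Within the FA group, FA replicate 3 lay far from the other libraries for 3 of the 10 genes, by the gap to its nearest neighbour as a share of the whole range of 4 libraries (Dixon's ratio, above its 95% critical value). This share was 0.876 for Fn1 (427 CPM, the others between 715 and 755), 0.856 for Tnc (23.3 CPM, the others between 51.3 and 56.0) and 0.938 for Fbn1 (152 CPM, the others between 286 and 294). The 20 combinations of gene and group were examined, and chance alone marks about 5% of such groups. The 10 genes are not independent of each other within a library.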

How the results depend on the processing

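The groups share 1 replicate number only. Nothing in the sources used here pairs FA with DE libraries, so no paired analysis was made.
For the log2 fold changes of the 10 genes under 21 alternatives, 186 values kept their direction and their side of the threshold, 9 reversed, 8 became called and 7 lost the call, and scaling by relative log expression, upper quartile or library totals reversed none. The number of called genes among all tested genes, among the 10 and over the 6 related lists was 868, 1 and 17. It became 1618, 2 and 32 with DESeq2, 1603, 2 and 30 with the likelihood ratio test, 114, 0 and 2 with the 25% difference built in, 2007, 3 and 33 with a surrogate variable, and 1569, 3 and 26 with length and GC offsets. It was 260, 0 and 6 in the libraries with number 11, and the number as a term left 448 genes called in all. The split by direction over all tested genes also moved. It was 803 higher and 217 lower in DE with library totals alone, and 44 and 70 with the 25% difference built in. Leaving out FA replicate 3 and DE replicate 1 gave 984 genes in all, 0 of the 10 and 9 of the related genes. Leaving out single libraries gave 237 to 1168 genes in all, 0 to 3 of the 10 and 4 to 21 of the related genes.
Postn was called with DESeq2 and the likelihood ratio test (0.70 each), the surrogate variable (0.76), the offsets (0.74) and without FA replicate 6 (0.88). Fn1 was called with the surrogate variable (0.54) and the offsets (0.55). Loxl2 was not called with the 25% difference (0.55), in the libraries with number 11 (0.59) or without both libraries (0.41). Without both, Thbs1 (-0.02), Thbs2 (-0.24), Lox (-0.29) and Fbn1 (-0.21) reversed. With single libraries left out, values ran from 0.54 to 0.88 for Postn (0.39 without both), 0.18 to 0.69 for Thbs1, 0.30 to 0.54 for Sparc, 0.46 to 0.61 for Loxl2, -0.08 to 0.31 for Thbs2 (0.00 without FA replicate 3), -0.10 to 0.70 for Lox and -0.03 to 0.33 for Fbn1. Per fibroblast marker without collagens, the log2 differences moved to 0.27 for Postn, -0.02 for Fn1, -0.31 for Thbs2, 0.06 for Loxl1, 0.09 for Loxl2 and -0.30 for Fbn1. Of the 15 fibroblast markers 4 were called, and 8 with DESeq2, the likelihood ratio test or the offsets, 9 with the surrogate variable, 6 with the number as a term, 1 with the 25% difference or without both libraries, and 1 to 7 with single libraries left out (1 without FA replicate 3, FA replicate 4 or DE replicate 3, 2 without FA replicate 2 or DE replicate 7, 7 without DE replicate 5). The causes were not tested, except that leaving out both libraries had to lessen the differences of the 10 genes, by whose extremes they were picked. The same holds for the fibroblast marker sum. Each of the 10 genes had at least 342 counts in every library, and 4 hearts a group limit the precision.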

Other observations

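Among the valve and cushion markers, Dlk1, a secreted and membrane-bound relative of the Notch ligands, averaged 53.0 ± 10.4 CPM in FA and 118 ± 11.1 in DE (SD, 4 libraries each) and rose by 1.15 on the log2 scale (edgeR adjusted p = 0.00131). The Wnt inhibitor Wif1 rose from 15.5 ± 1.86 to 23.6 ± 3.99 CPM, by 0.60 (adjusted p = 0.0312). The other 8 genes of that list were not called, and the most abundant, Tbx20, was at -0.29 (adjusted p = 0.297).

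In the small leukocyte list, Itgam rose from 0.481 ± 0.083 to 0.943 ± 0.122 CPM, by 0.94 (adjusted p = 0.0411). Among the erythroid markers Slc4a1, the band 3 anion exchanger of red cells, rose from 1.67 ± 0.333 to 3.20 ± 0.945 CPM, by 0.95 (adjusted p = 0.0422), while the globin genes Hba-a1 and Hba-a2, which are near-identical and whose counts are uncertain, were not called.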
